A study of Caenorhabditis elegans with 22 samples.

Results

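The genes described here were those whose FPKM changed more with 500 mM NaCl in *daf-16* mutant embryos than in wild-type embryos of *C. elegans*. FPKM, the unit of all levels given, divides a gene's fragment count by transcript length and by sequencing depth. The members were chosen by measured values. The change was computed as the mean FPKM at 500 mM NaCl over the mean FPKM at 50 mM NaCl plus 1. A gene was selected where this change was above 2 in *daf-16* embryos, was more than 2 times the change in wild-type embryos of the same experiment, and where the mean in *daf-16* embryos at 500 mM was at least 5 FPKM. Of 45460 genes in the table, 264 met all 3 limits. They are part of 1549 genes with a change above 2 and at least 5 FPKM in *daf-16* embryos. Because 12 libraries chose the members, every value of those libraries is given below as a description without a test, and tests were made only in 10 other libraries.

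Embryos were placed for 3 h on agar with 50 or 500 mM NaCl, and RNA of whole embryos was sequenced. In experiment 2, *daf-16* and wild-type embryos gave 3 libraries each at either concentration. In experiment 1, *ssu-1* and wild-type embryos gave 3 libraries each at 500 mM and 2 libraries each at 50 mM. The *daf-16* libraries carry the strain label LGI:daf-16(m26, mu86), and the *ssu-1* libraries carry a label with the alleles fc73, n5883, tm1117, gk266317, gk747222, gk876992 and gk319712 and the transgene zIs356, which holds a *daf-16*::GFP fusion under the *daf-16* promoter with the marker *rol-6*. The growth protocol names *daf-16(m26)* and *ssu-1(fc73)* alone, so that the strain behind either set of libraries was not settled by the labels. Wild type was the Bristol strain N2. All embryos were exposed whole and at stages that the sources used here do not give. The labels do not say whether replicates came from separate cultures, so p-values measure the spread between these libraries, which may be technical. In RNA of whole embryos, fewer cells of a type and less RNA per cell cannot be told apart.

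Library depth, estimated from low FPKM values, lay between 0.655 and 1.26 times that of the median library. The *daf-16* gene was not lower in the *daf-16* libraries, with 249.6 ± 41.8 FPKM against 229 ± 18.3 FPKM in wild type at 500 mM (SD, n = 3 each), so its level does not check that label. The superoxide dismutase gene *sod-5*, a known DAF-16 target, had 45.2 ± 9.26 FPKM in *daf-16* and 558 ± 83.5 FPKM in wild-type embryos at 500 mM (SD, n = 3 each). The *ssu-1* gene had 1.53 ± 0.282 FPKM in *ssu-1* and 2.85 ± 0.127 FPKM in wild-type embryos at 500 mM (SD, n = 3 each). Some libraries stood apart for the genes described here. Wild-type 50 mM replicate 4 of experiment 2 was the highest of its 3 replicates for 249 of the 264 members, *daf-16* 500 mM replicate 2 was the lowest for 248, and wild-type 500 mM replicate 1 of experiment 1 was the highest for 244. The selection depended most on wild-type 50 mM replicate 4, and values without it stand beside the groups and genes below. Wild-type 50 mM replicates 3 and 4 of that experiment carry library numbers of another series than the remaining libraries of the experiment.

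DAF-16 is the FOXO transcription factor that acts when insulin-like signaling is low, and SSU-1 is a cytosolic sulfotransferase of the ASJ sensory neurons. The early *C. elegans* embryo lives on RNAs and proteins laid down by the mother, many of which encode RNA-binding proteins and germ plasm components that are cleared as the embryo divides. The first zygotic transcripts include genes that depend on the maternal factor SKN-1 (*sdz* genes), very early transcripts (*vet* genes), and many genes of F-box proteins, which bring substrates to SCF ubiquitin ligases through Skp1-related (*skr*) adaptors. The levels of such genes can therefore mark embryo age, but the F-box, *skr*, *sdz* and *vet* members were not among the stage markers used below.

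The median change of the members was 4.54 in *daf-16* embryos (2.02 to 24.8) and 1.81 in wild-type embryos of the same experiment (0.558 to 10.02). In wild type 110 members had a change above 2 and 17 had a change under 1. The 2 components of the difference were both in the direction the selection favors. At 500 mM the median ratio of *daf-16* over wild type was 1.61, with 263 of 264 members above 1, and at 50 mM it was 0.693, with 256 members below 1. The exception at 500 mM was *sip-1*. Member means in *daf-16* embryos at 500 mM lay between 5.00 and 1817 FPKM, with a median of 20.1 FPKM. All 3 *daf-16* libraries lay above all 3 wild-type libraries at 500 mM for 166 members, against 29.2% of the 14868 genes expressed in experiment 2 (1 FPKM or more in 2 or more libraries). All 3 *daf-16* libraries lay below all 3 wild-type libraries at 50 mM for 40 members (41 without wild-type 50 mM replicate 4), against 5.65% of expressed genes. Both contrasts were used in the selection, so nothing is read from these shares.

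**Figure D1:**
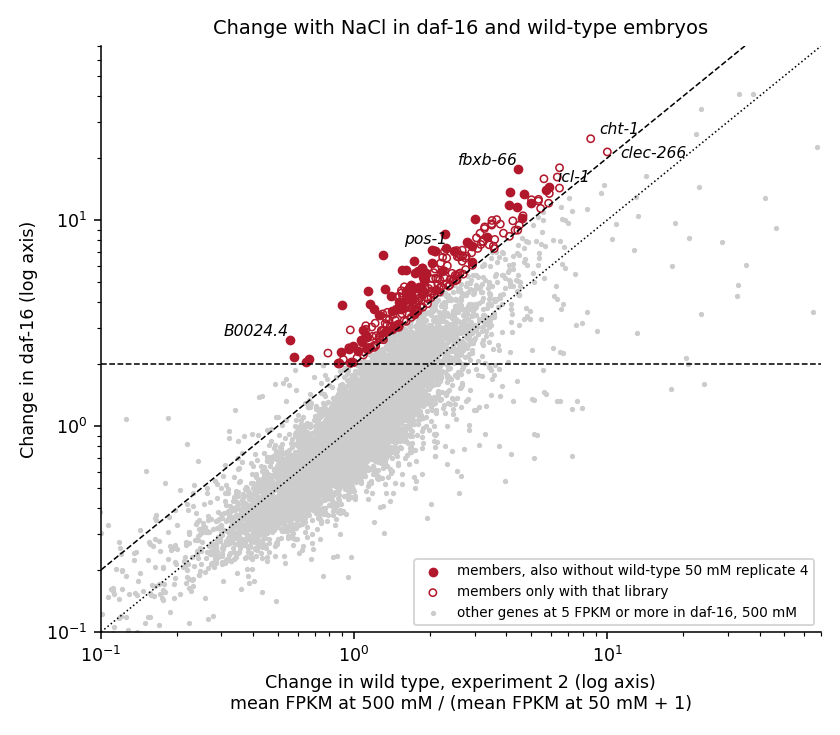
Change in *daf-16* embryos (vertical axis) against change in wild-type embryos of experiment 2 (horizontal axis), each as mean FPKM at 500 mM over mean FPKM at 50 mM plus 1, on log axes. Each point is a gene with at least 5 FPKM in *daf-16* embryos at 500 mM; dashed lines mark a change of 2 and a change 2 times that of wild type, the dotted line equal changes. Filled red points are the 76 members that also met the limits without wild-type 50 mM replicate 4, open red points the members that did not.

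The number of members differed with and without wild-type 50 mM replicate 4. The median member had 23.3, 14.2 and 22.5 FPKM in the 3 *daf-16* libraries at 500 mM, against 3.80, 2.76 and 2.47 FPKM in those at 50 mM. In wild type it had 9.95, 12.9 and 11.6 FPKM at 500 mM, against 3.42, 8.26 and 2.76 FPKM at 50 mM, where the value of 8.26 FPKM is replicate 4. Without that library 79 genes met the limits, and 76 of them were among the 264. With replicate 5 as the single wild-type 50 mM library 62 genes met them, of which 48 were members. For the 264 members the median 50 mM ratio of *daf-16* over wild type was 0.899 without replicate 4, with 183 members below 1 and 81 above. The median change in wild type was then 2.41, and the change in *daf-16* over that in wild type had a median of 1.84 and a lowest value of 1.27, so that it stayed above 1 for all 264. At the other end, *daf-16* 500 mM replicate 2 was the lowest of its 3 replicates for 248 members, and without it 391 genes met the limits.

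Markers of embryo stage were set beside the members. Of 24 genes listed as markers of the early embryo, 11 were members. Among the other 13, 4 were under 1 FPKM in every library, and *mex-3* had the highest mean, 40.3 FPKM over the 22 libraries. Sums over these 13 genes thus rest largely on *mex-3*. The remaining 13 summed to 82.3, 58.5 and 82.7 FPKM in *daf-16* embryos at 500 mM, against 56.0, 53.1 and 53.6 FPKM in wild-type embryos at 500 mM. At 50 mM the sums were 39.5, 43.2 and 36.8 FPKM in *daf-16* embryos, against 33.5, 50.8 and 32.6 FPKM in wild-type embryos. The wild-type library with the high sum at 50 mM was again replicate 4, and the *daf-16* library with the low sum at 500 mM was again replicate 2. These sums were higher in *daf-16* embryos without overlap at 500 mM, and at 50 mM the genotypes overlapped. Without wild-type 50 mM replicate 4 the *daf-16* sums at 50 mM were the higher ones, whereas the median ratio of the members was 0.899. The 10 markers of the hatched larva, none of them a member, summed to between 1752 and 1942 FPKM in *daf-16* embryos at 500 mM, against 2271 to 2482 FPKM in wild-type embryos. At 50 mM they summed to between 5811 and 5985 FPKM in *daf-16* embryos, against 7418, 5065 and 6632 FPKM in wild-type embryos, with the lowest value in replicate 4. The 23 markers of the late embryo, none of them a member, summed to between 10570 and 12136 FPKM in *daf-16* embryos at 500 mM, against 12199 to 13010 FPKM in wild-type embryos. At 50 mM the late embryo sums lay between 15197 and 15717 FPKM in *daf-16* embryos, against 14138 to 17276 FPKM in wild-type embryos. Markers of differentiated tissues, none of them a member, were also measured at 500 mM. The 6 embryonic muscle genes summed to between 2248 and 2556 FPKM in *daf-16* embryos, against 2715 to 2998 FPKM in wild-type embryos, and the 6 gut genes to between 571 and 624 FPKM in *daf-16* embryos, against 647 to 681 FPKM in wild-type embryos. The 177 collagen genes summed to between 15643 and 18216 FPKM in *daf-16* embryos, against 19086 to 20707 FPKM in wild-type embryos. These 3 sets were lower in *daf-16* embryos without overlap, while the 6 epidermis genes overlapped, with 3273 to 3727 FPKM in *daf-16* embryos, against 3640 to 3928 FPKM in wild-type embryos. Such sums are weighted to the most abundant genes. Means over the 22 libraries were highest for *pat-10* in muscle (1328 FPKM) and *act-5* in gut (616 FPKM). *sqt-3* (3051 FPKM) was highest in the epidermis, collagen and late embryo sets, so these sets are not separate. Total FPKM at 500 mM was also lower in *daf-16* embryos, 736577 to 755606, against 771958 to 782290 in wild-type embryos. The part of embryo stage or tissue makeup in the selection of the 264 genes was not tested. Genes of other sources were low, as 5 of 6 adult yolk genes and 26 of 32 sperm genes were under 1 FPKM in every library, and the sperm genes *msp-63* and *msp-74* were at 0.

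**Figure D2:**
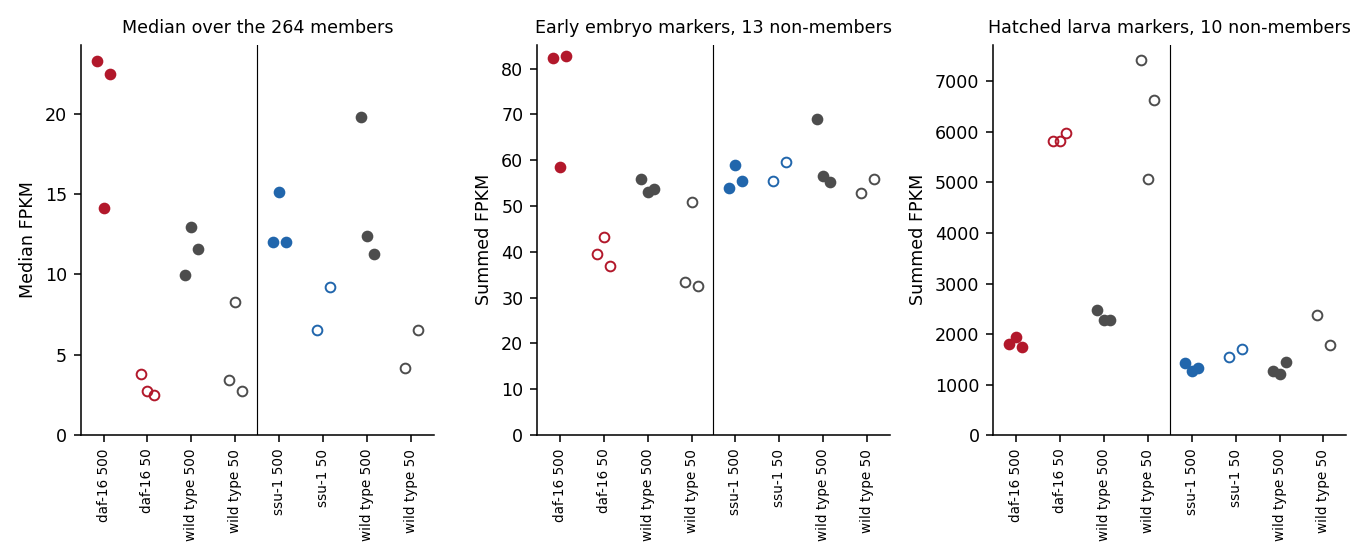
Median FPKM over the 264 members, summed FPKM of the 13 early embryo markers that are not members and summed FPKM of the 10 hatched larva markers, 1 point per library, with filled points for 500 mM and open points for 50 mM (experiment 2 left of the line, experiment 1 right). The sums of the 13 early embryo markers rest largely on *mex-3*. In experiment 2 the highest member medians, 23.3 and 22.5 FPKM, and the highest early marker sums, 82.3 and 82.7 FPKM, belong to the same *daf-16* libraries, and wild-type 50 mM replicate 4 is the open point at 8.26 FPKM in the first panel and 50.8 FPKM in the second.

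By function, 103 members fell in lists of named gene groups and 161 in none. Beside the shares below, the members were 264 genes against 14868 expressed in experiment 2. The lists were chosen with earlier results of these data known, and their shares were not tested. Maternal RNA-binding and germ plasm genes gave 22 members, 48.9% of the 45 listed genes that were expressed, and cell division genes gave 22 members, 24.4% of 90. Genes of F-box, MATH or BTB domain proteins gave 35 members, 10.6% of 329, among them 24 of 91 expressed *fbxb* genes and 6 of 42 *fbxc* genes (8 and 1 of them without wild-type 50 mM replicate 4). The *sdz* genes gave 8 of 24 and the *skr* genes 7 of 19. Collagens, which are made late in embryogenesis and after, gave 0 of 107. The remaining lists gave 4 eggshell, oocyte and fertilization genes, 3 lineage transcription factors, 3 C-type lectins, 2 genes of glyoxylate and glucose metabolism, 2 small heat-shock genes, 1 nuclear hormone receptor and 1 histone. Of the 264 genes 253 were protein-coding and 9 were pseudogenes, and 35 of the coding ones lay next to another member, with *skr-13*, *skr-9* and *skr-8* in 1 run. Levels of near-identical neighbors and paralogs, such as *pes-2.1* and *pes-2.2*, which had the same value in every library, or the *skr* genes, may have been split between them in the mapping and are uncertain.

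In the maternal genes the median ratio between genotypes was further from 1 at 500 mM than at 50 mM. Their median ratio of *daf-16* over wild type was 2.36 at 500 mM and 0.896 at 50 mM, and the ratio at 50 mM was 1.26 without wild-type 50 mM replicate 4. All 22 were above wild type in all 3 *daf-16* libraries at 500 mM, against 29.2% of expressed genes. At 50 mM 0 were below it without overlap, against 5.65% of expressed genes. Both contrasts were used in the selection, so these counts are a description only. *pos-1*, which encodes a zinc-finger RNA-binding protein that specifies posterior fates, had 121, 66.0 and 122 FPKM at 500 mM against 14.9, 15.3 and 8.93 FPKM at 50 mM in *daf-16* embryos. In wild type it had 40.6, 42.7 and 44.7 FPKM at 500 mM against 14.9, 29.5 and 7.88 FPKM at 50 mM. All *daf-16* libraries at 500 mM were thus above all others of experiment 2, and the second of them was the lowest of the 3. *mex-5*, for a zinc-finger protein of embryonic polarity, had 50.7, 25.9 and 53.5 FPKM in *daf-16* embryos at 500 mM, against 14.3, 15.5 and 17.3 FPKM in wild type. *nos-2*, a Nanos homolog of the germ line, had 29.7, 14.4 and 32.7 FPKM in *daf-16* embryos at 500 mM, against 9.76, 12.1 and 12.3 FPKM in wild type. Neither gene overlapped between the genotypes at that concentration. *spn-4*, *era-1*, *mex-1*, *mex-6*, *pie-1*, *oma-1*, *oma-2*, *zif-1* and *meg-1*, of which most act in germ plasm, polarity or the oocyte-to-embryo transition, had changes of 3.57 to 7.88 in *daf-16* embryos and of 1.36 to 3.22 in wild type (2.07 to 5.22 without wild-type 50 mM replicate 4). Among families of RNA-binding proteins, 5 of 9 expressed *puf* genes and 3 of 4 *mex* genes were members, of which 1 *puf* gene and 2 *mex* genes met the limits without that library. Without wild-type 50 mM replicate 4, 8 of the 22 met the limits, among them *pos-1*, *mex-5*, *mex-6*, *pie-1*, *oma-2* and *meg-1*.

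Cell division genes had smaller changes, with a median of 3.61 in *daf-16* embryos and 1.58 in wild type (1.92 without wild-type 50 mM replicate 4). *cyb-3*, a B-type cyclin, had 389.6, 256 and 367 FPKM at 500 mM against 68.5, 47.2 and 45.0 FPKM at 50 mM in *daf-16* embryos. In wild type it had 181, 224 and 222 FPKM at 500 mM against 74.2, 158 and 49.6 FPKM at 50 mM, with the value of 158 FPKM in replicate 4. The genotypes did not overlap at 500 mM, and at 50 mM they overlapped. All 4 expressed *cyb* genes were members, and 0 of them met the limits without replicate 4. *rnr-2*, the small subunit of ribonucleotide reductase, had 255, 113 and 192 FPKM in *daf-16* embryos at 500 mM, against 94.9, 141 and 110.4 FPKM in wild type, and the sets overlapped. *pcn-1*, the replication clamp PCNA, had 215, 113 and 184 FPKM in *daf-16* embryos at 500 mM, against 88.5, 114 and 111 FPKM in wild type, and overlapped as well. *cyb-1*, a further B-type cyclin, had a change of 5.20 in *daf-16* embryos and 2.15 in wild type (3.14 without replicate 4). *mcm-7*, a subunit of the replicative helicase, had a change of 3.71 in *daf-16* embryos and 1.47 in wild type (1.78 without replicate 4). Without wild-type 50 mM replicate 4, 4 of these 22 genes met the limits, *mcm-7* and *pcn-1* among them.

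The F-box group held 5 of the 12 largest changes. The *fbxb* members had a median change of 7.46 in *daf-16* embryos and 3.08 in wild type (4.13 without wild-type 50 mM replicate 4). *fbxb-66* had 69.9, 54.6 and 64.5 FPKM at 500 mM against 3.91, 2.22 and 1.59 FPKM at 50 mM in *daf-16* embryos. In wild type it had 31.3, 39.0 and 34.4 FPKM at 500 mM against 4.38, 11.96 and 4.24 FPKM at 50 mM. It was higher in *daf-16* embryos without overlap at 500 mM and lower without overlap at 50 mM. *fbxb-41* had 69.1, 43.1 and 64.2 FPKM in *daf-16* embryos at 500 mM, against 31.6, 40.4 and 31.6 FPKM in wild type. *fbxb-35*, *fbxb-18* and *fbxc-34* had changes of 13.4 to 14.3 in *daf-16* embryos and of 4.69 to 6.49 in wild type (5.09 to 7.75 without replicate 4). *fbxb-45* had a change of 10.5 in *daf-16* embryos and 4.66 in wild type (7.53 without replicate 4). *fbxb-66*, *fbxb-35*, *fbxb-18* and *fbxb-26* met the limits without wild-type 50 mM replicate 4, while *fbxb-41*, *fbxb-45* and *fbxc-34* did not; 9 of the 35 genes of the list did. The *skr* members, whose products bind F-box proteins, had a median change of 4.31 in *daf-16* embryos and 1.61 in wild type (2.38 without wild-type 50 mM replicate 4), and 0 of the 7 met the limits without that library. *skr-9* had 41.6, 14.5 and 29.0 FPKM at 500 mM in *daf-16* embryos, against 16.2, 22.5 and 19.2 FPKM in wild type, with overlap.

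The *sdz* genes had a median ratio of *daf-16* over wild type of 1.46 at 500 mM and of 0.554 at 50 mM (0.781 without wild-type 50 mM replicate 4). *sdz-25* had 43.8, 26.0 and 44.1 FPKM at 500 mM against 3.77, 2.62 and 1.87 FPKM at 50 mM in *daf-16* embryos. Wild-type embryos had 21.0, 28.2 and 24.96 FPKM at 500 mM against 3.96, 13.2 and 4.34 FPKM at 50 mM. The genotypes overlapped at 500 mM and not at 50 mM. *sdz-28*, *sdz-21*, *sdz-5* and *sdz-33* had changes of 3.61 to 7.82 in *daf-16* embryos and of 1.42 to 2.79 in wild type (1.79 to 3.90 without replicate 4). These 5 of the 8 *sdz* members met the limits without replicate 4. All 3 expressed *vet* genes were members as well, and 0 of them met the limits without that library. *sea-1*, a T-box gene that counts autosomes in sex determination, had 16.2, 6.56 and 12.9 FPKM in *daf-16* embryos at 500 mM, against 6.82, 8.17 and 6.85 FPKM in wild type, with overlap. Of the lineage factors, *ces-2*, a bZIP gene of cell fate, had 179, 205 and 183 FPKM in *daf-16* embryos at 500 mM, against 119, 126 and 127 FPKM in wild type, without overlap. *hnd-1*, a Hand-type bHLH gene of mesoderm, had a change of 4.48 in *daf-16* embryos and 2.18 in wild type (3.19 without replicate 4). *lsy-27* had a change of 4.24 in *daf-16* embryos and 1.48 in wild type (2.605 without replicate 4). The nuclear hormone receptor gene *nhr-2* had a change of 4.55 in *daf-16* embryos and 1.54 in wild type (2.44 without replicate 4). None of these 4 genes met the limits without replicate 4, whereas *sea-1* did.

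The largest change of all was that of *cht-1*, which encodes a chitinase. It had 642, 495 and 589 FPKM at 500 mM against 32.6, 21.0 and 12.8 FPKM at 50 mM in *daf-16* embryos. Wild-type embryos had 367, 410.5 and 428 FPKM at 500 mM against 30.9, 81.2 and 24.8 FPKM at 50 mM. The genotypes were separate at 500 mM and overlapped at 50 mM, and *cht-1* did not meet the limits without wild-type 50 mM replicate 4. *clec-266*, a C-type lectin gene, had 1867, 1650.4 and 1620 FPKM in *daf-16* embryos at 500 mM, against 1227, 1241 and 1347 FPKM in wild type. *cav-1*, for a caveolin, had 1968, 1711 and 1773 FPKM in *daf-16* embryos at 500 mM, against 1159.8, 1261 and 1338 FPKM in wild type, and was the most abundant member. Both were separate between the genotypes at this concentration. The lectin genes *clec-87* and *clec-88* and the eggshell proteoglycan genes *cpg-1* and *cpg-2* had changes of 4.41 to 8.20 in *daf-16* embryos and of 1.97 to 3.05 in wild type (2.29 to 5.67 without replicate 4). None of the 4 eggshell genes and none of the 3 lectins met the limits without replicate 4.

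*icl-1*, whose bifunctional enzyme runs the glyoxylate cycle, differed between genotypes at 50 mM rather than at 500 mM. It had 1057, 1195 and 1032 FPKM in *daf-16* embryos at 500 mM, against 1011, 954 and 1040.4 FPKM in wild type, and 88.1, 71.2 and 64.2 FPKM at 50 mM, against 181, 171 and 153 FPKM in wild type. The genotypes lay close together at 500 mM and far apart at 50 mM, and *icl-1* met the limits with and without wild-type 50 mM replicate 4. *ins-2*, an insulin-like peptide gene, had 46.1, 38.6 and 39.1 FPKM at 500 mM against 2.98, 2.50 and 2.26 FPKM at 50 mM in *daf-16* embryos. Wild-type embryos had 25.03, 25.6 and 23.7 FPKM at 500 mM against 2.74, 6.37 and 4.81 FPKM at 50 mM. It was separate at 500 mM and also met the limits without that library, as did *arrd-1*, an arrestin-domain gene with a change of 13.7 in *daf-16* embryos and 4.15 in wild type (6.62 without replicate 4). *gpd-1*, a glyceraldehyde-3-phosphate dehydrogenase gene, had a change of 4.18 in *daf-16* embryos and 1.81 in wild type (2.30 without replicate 4), and did not meet the limits without that library. Of the small heat-shock genes, *hsp-16.11* met the limits without wild-type 50 mM replicate 4 and *sip-1* did not. *sip-1* had 98.0, 57.8 and 102 FPKM in *daf-16* embryos at 500 mM, against 100.2, 104 and 118 FPKM in wild type, and 12.7, 12.2 and 10.8 FPKM in *daf-16* embryos at 50 mM, against 37.3, 60.0 and 20.8 FPKM in wild type. *hsp-16.11* had 143, 24.8 and 127 FPKM in *daf-16* embryos at 500 mM, against 27.9, 137 and 57.4 FPKM in wild type. *sip-1* was thus separate between the genotypes at 50 mM, and the replicates of *hsp-16.11* differed more than the genotypes did. *his-32*, a histone H3 gene, had a change of 3.92 in *daf-16* embryos and 1.16 in wild type (1.69 without replicate 4), and met the limits without that library. The other members named only by sequence or by a role not given here, *Y71F9AL.7*, *atz-1*, *C24H12.11*, *R11A5.3* and *F07H5.13*, had changes of 7.19 to 16.2 in *daf-16* embryos and of 2.04 to 6.36 in wild type (3.13 to 9.74 without replicate 4).

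**Figure D3:**
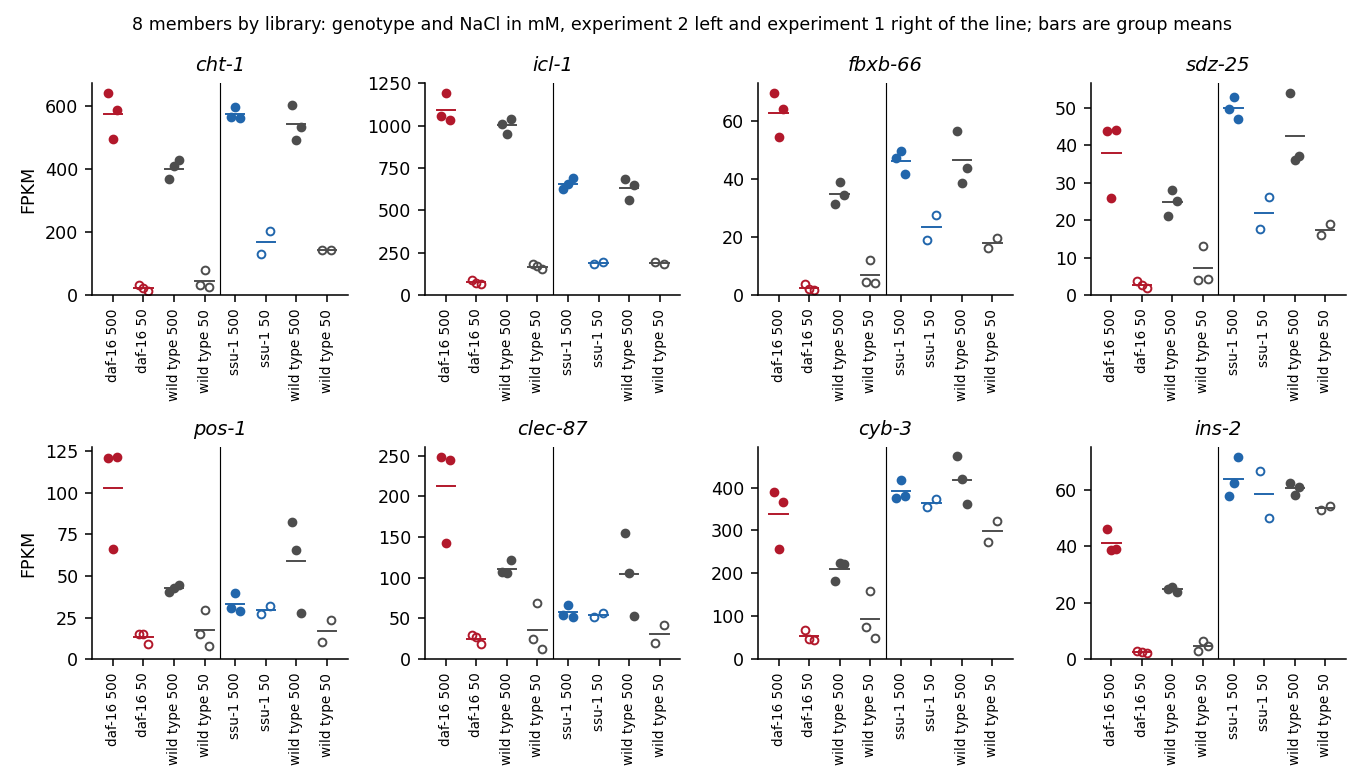
FPKM of 8 members in every library, 1 point per library, with filled points for 500 mM, open points for 50 mM and bars for group means (experiment 2 left of the line, experiment 1 right). For *pos-1* and *clec-87* the *ssu-1* points at 500 and 50 mM lie side by side, and for *ins-2* no point of experiment 1 is under 50.05 FPKM.

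The members just inside the limits differed little from genes just outside them. *gldi-5* and *C01G8.1* had *daf-16* changes of 2.018 and 2.023, against 1.995 for *szy-4* and 1.997 for *mcm-4*, which were left out. *C33E10.1* and *C36B1.11* had changes 2.004 times those of wild type, against 1.9925 times for *rgs-9* and 1.9992 times for *mei-2*, which were left out. *fbxb-95* had 5.00 and *K05F6.4* 5.05 FPKM in *daf-16* embryos at 500 mM, against 4.98 FPKM each for *F56D5.5* and *tag-276*, which were left out.

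Experiment 1 gave libraries that the selection did not use, and asked how the same genes changed in *ssu-1* and wild-type embryos. Tests were made with limma on log2(FPKM + 1), a scale that understates the changes of genes with low FPKM, and p-values were adjusted over all 13924 genes tested. Of the 264 members 263 were tested, since *F54A3.4* was too low. In *ssu-1* embryos 124 members (47.1%) rose at 500 mM and 1, *C24H12.7*, fell, against 18.5% of all genes that rose and 18.1% that fell, and the median log2 change was 0.40 (-0.00 over all genes). In wild type 242 members (92.0%) rose and 0 fell, against 25.3% of all genes that rose and 26.0% that fell, and the median log2 change was 1.01 (-0.01 over all genes). At an unadjusted p under 0.05 the count of members that fell in wild type was also 0. The 124 genes that rose in *ssu-1* embryos all rose in wild type too. Among the 1284 other tested genes with a *daf-16* change above 2 and at least 5 FPKM, 63.7% rose in *ssu-1* embryos, with a median log2 change of 0.32, and 82.8% rose in wild type, with a median of 0.45. The *ssu-1* count was 71 without *ssu-1* 50 mM replicate 1, and the wild-type count was 140 without wild-type 50 mM replicate 1. The 75 tested members that met the limits without wild-type 50 mM replicate 4 of experiment 2 gave 36 that rose and 1 that fell in *ssu-1* embryos, and 64 that rose in wild type.

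The difference between the genotypes, the *ssu-1* log2 change minus the wild-type one, passed the limma threshold for 0 members, against 0.682% of all genes with a positive and 0.689% with a negative difference that passed. At an unadjusted p under 0.05 there were 57 members (21.7%), all negative, against 6.00% of all genes with a negative difference. The difference was negative for 246 of 263 members and 7131 of 13924 genes, with a median of -0.36 (-0.01 over all genes), and the lowest adjusted p was 0.0835, for *sgnh-1*. Among the 1284 other tested genes with a *daf-16* change above 2 and at least 5 FPKM, it was negative for 1016, with a median of -0.11. Of those 1284 genes, 186 (14.5%) had a negative difference at an unadjusted p under 0.05. In the same set 25 negative and 5 positive differences passed the limma threshold, so a negative difference was not particular to the members. Without wild-type 500 mM replicate 3 the difference passed for 12 members, all negative and 5 of them maternal genes, against 1.008% of 13893 genes with a positive and 0.7774% with a negative difference in the same refit, so the count of 0 rests on that library. Wild-type 500 mM replicate 1 was the highest of its 3 replicates for 244 members. The median member had 11.99, 15.13 and 12.01 FPKM in *ssu-1* embryos at 500 mM and 6.55 and 9.22 FPKM at 50 mM. Wild-type embryos had 19.8, 12.4 and 11.3 FPKM at 500 mM and 4.18 and 6.56 FPKM at 50 mM. The wild-type libraries at 500 mM thus spanned the whole range of the *ssu-1* libraries at that concentration.

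At 500 mM 2 members differed between *ssu-1* and wild-type embryos by limma, *C06E1.1* with a log2 difference of 0.26 (adjusted p = 0.0287) and *C29F3.3* with -0.60 (adjusted p = 0.0256), both named after their values were seen. Of all genes 2.83% were higher and 2.82% lower in *ssu-1* embryos at this concentration, and 21 members (7.98%) had an unadjusted p under 0.05, against 19.1% of all genes. Without wild-type 500 mM replicate 3, 14 members passed, all lower in *ssu-1* embryos, against 2.807% of 13893 genes higher and 2.483% lower in the same refit. Neither *C06E1.1* nor *C29F3.3* was among those 14, so both calls rest on that library. At 50 mM 0 members passed, against 0.165% of all genes higher and 0.481% lower, and 49 members (18.6%) had an unadjusted p under 0.05, of which 48 were higher in *ssu-1* embryos. Over all genes it was 1741 of 13924 (12.5%), of which 864 were higher. The log2 difference at 50 mM was positive for 252 of 263 members, with a median of 0.31, and for 7737 of 13924 genes, with a median of 0.02. Among the 1284 other tested genes with a *daf-16* change above 2 and at least 5 FPKM, it was positive for 1078, with a median of 0.11. Of those 1284 genes, 254 (19.8%) had an unadjusted p under 0.05, of which 218 were higher in *ssu-1* embryos. The shift at 50 mM was thus not particular to the members.

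**Figure D4:**
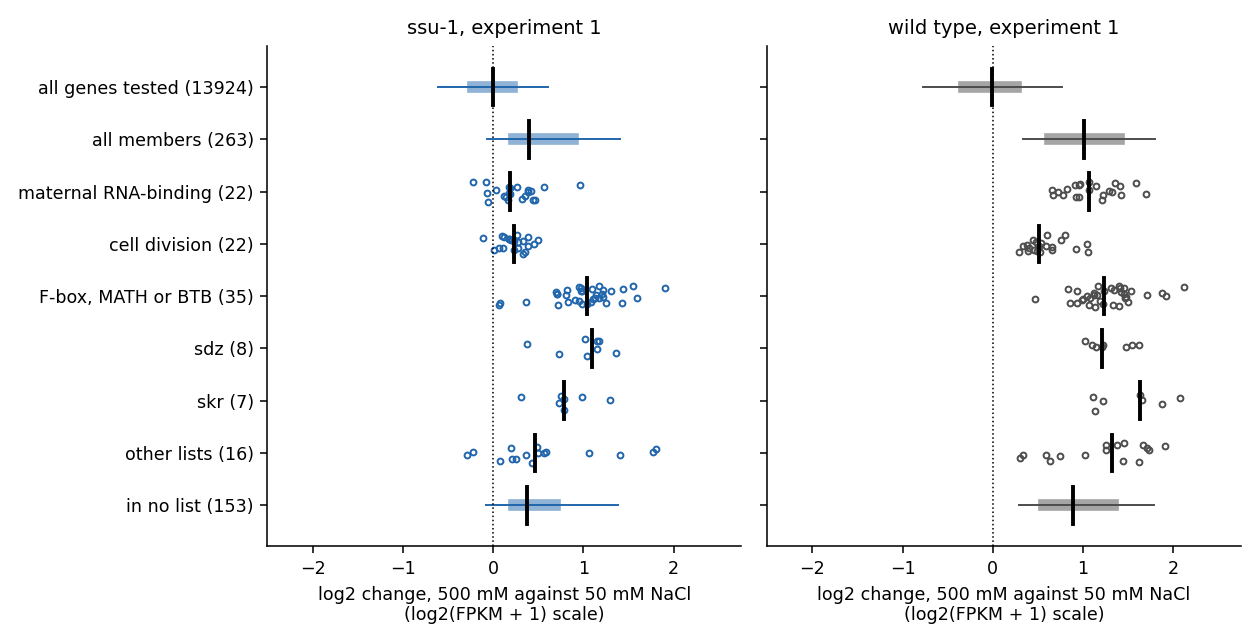
Log2 change at 500 mM against 50 mM in *ssu-1* embryos (left) and wild-type embryos (right) of experiment 1, by group of members, with all 13924 tested genes at the top. Points are genes and black bars medians; rows with many genes show the interquartile range as a thick bar and the range without the extreme 5% at each end as a line. The maternal members have a median of 0.18 in *ssu-1* embryos and 1.06 in wild type, the F-box members 1.04 in *ssu-1* embryos and 1.23 in wild type.

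Of the 22 maternal members 1 rose in *ssu-1* embryos, with a median log2 change of 0.18, and 20 rose in wild type, with a median of 1.06. Over all genes 18.5% rose in *ssu-1* embryos and 25.3% in wild type. The median difference of the maternal members was -0.87. All 22 differences were negative. Of these 9 (40.9%) had an unadjusted p under 0.05 by limma, against 6.00% of all genes with a negative difference, but 0 passed the adjusted threshold. *pos-1* had 30.5, 39.6 and 28.9 FPKM at 500 mM and 27.3 and 31.8 FPKM at 50 mM in *ssu-1* embryos, against 82.7, 65.9 and 27.8 FPKM at 500 mM and 10.5 and 23.7 FPKM at 50 mM in wild type. Its log2 change was 0.14 ± 0.41 (SE, adjusted p = 0.808) in *ssu-1* embryos and 1.69 ± 0.41 (SE, adjusted p = 0.00576) in wild type by limma. The *ssu-1* libraries of *pos-1* lay in 1 narrow band at both concentrations, while wild type ranged widely at 500 mM and its replicate 3 lay inside that band. The difference for *pos-1* was -1.55 ± 0.57 (SE, adjusted p = 0.257), and without wild-type 500 mM replicate 3 it was -2.01 ± 0.40 (SE, adjusted p = 0.0404). *nos-2* was the 1 maternal member that rose in *ssu-1* embryos, by 0.96 ± 0.31 (SE, adjusted p = 0.0326). Of the 11 early embryo markers that are members, 1 rose in *ssu-1* embryos and 11 in wild type. Of the 13 markers that are not members, 5 were high enough to be tested, and *mex-3* was the most abundant on average. The 13 summed to 53.9 to 59.1 FPKM at 500 mM and 55.4 and 59.5 FPKM at 50 mM in *ssu-1* embryos. In wild type those 13 summed to 69.1, 56.6 and 55.3 FPKM at 500 mM and 52.8 and 56.0 FPKM at 50 mM, and their part in the results of experiment 1 was not tested. The highest of these sums belonged to wild-type 500 mM replicate 1, the library in which most members were highest.

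Most F-box and *sdz* members rose in both genotypes, against 18.5% of all genes in *ssu-1* embryos and 25.3% in wild type. Of the 35 F-box, MATH or BTB members 31 rose in *ssu-1* embryos, with a median log2 change of 1.04, and 33 in wild type, with a median of 1.23. Of the 8 *sdz* members 6 rose in *ssu-1* embryos, with a median of 1.10, and 7 in wild type, with a median of 1.21. Of the 7 *skr* members 4 rose in *ssu-1* embryos, with a median of 0.78, and 7 in wild type, with a median of 1.63. Whether these groups differed from the maternal genes was not tested. *fbxb-66* had 47.5, 49.9 and 41.9 FPKM at 500 mM and 19.2 and 27.8 FPKM at 50 mM in *ssu-1* embryos, against 56.7, 38.9 and 43.9 FPKM at 500 mM and 16.2 and 19.8 FPKM at 50 mM in wild type. Its log2 change by limma was 0.97 ± 0.17 (SE, adjusted p = 0.00172) in *ssu-1* embryos and 1.31 ± 0.17 (SE, adjusted p = 0.000214) in wild type. The 2 genotypes thus overlapped at 500 mM, and in both the concentrations were separate. *R11A5.3*, *fbxb-26*, *skr-9* and *sea-1* had the largest wild-type log2 changes of all members, 1.96 to 2.20. *fbxb-26* rose by 1.91 ± 0.38 (SE, adjusted p = 0.00326) in *ssu-1* embryos, and *skr-9*, with 0.78 ± 0.37 (SE, adjusted p = 0.12), did not pass the threshold there.

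Of the 22 cell division members 9 (40.9%) rose in *ssu-1* embryos, with a median log2 change of 0.23, and 22 in wild type, with a median of 0.51. Over all genes 18.5% rose in *ssu-1* embryos and 25.3% in wild type. *cyb-3* had 376, 417 and 381 FPKM at 500 mM and 354 and 374 FPKM at 50 mM in *ssu-1* embryos, against 473, 419 and 362 FPKM at 500 mM and 274 and 322 FPKM at 50 mM in wild type. Its log2 change was 0.10 ± 0.10 (SE, adjusted p = 0.465) in *ssu-1* embryos, and it rose by 0.48 ± 0.10 (SE, adjusted p = 0.00339) in wild type. Among the 68 listed cell division genes that are not members, 37 rose and 1 fell in *ssu-1* embryos, and 57 rose and 1 fell in wild type. Of 23 maternal genes that are not members, 0 rose and 1 fell in *ssu-1* embryos, and 9 rose and 3 fell in wild type.

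*cht-1* and *icl-1* rose in both genotypes. *cht-1* had 564, 597 and 564 FPKM at 500 mM and 130.5 and 205 FPKM at 50 mM in *ssu-1* embryos, against 604, 492 and 534 FPKM at 500 mM and 142 and 144 FPKM at 50 mM in wild type. *icl-1* had 628, 658 and 689 FPKM at 500 mM and 186 and 197 FPKM at 50 mM in *ssu-1* embryos, against 684, 559 and 651 FPKM at 500 mM and 194 and 185 FPKM at 50 mM in wild type. The log2 change of *cht-1* by limma was 1.81 ± 0.15 (SE, adjusted p = 1.95e-05) in *ssu-1* embryos, and that of *icl-1* was 1.77 ± 0.08 (SE, adjusted p = 4.3e-07). The lectins split: *clec-266* rose by 1.07 ± 0.06 (SE, adjusted p = 1.32e-06) in *ssu-1* embryos, and the values of *clec-87* and *clec-88* were 0.07 ± 0.38 (SE, adjusted p = 0.902) and -0.22 ± 0.37 (SE, adjusted p = 0.673). In wild type all 3 lectins rose, *clec-87* by 1.71 ± 0.38 (SE, adjusted p = 0.00406). The positive differences between *ssu-1* and wild type with the lowest p were those of *dhs-19*, a short-chain dehydrogenase gene, *C24H12.11* and *C17C3.1*, at 0.36 to 0.42, and the negative ones were those of *sgnh-1*, *C17E7.4* and *eco-1*, a gene of sister chromatid cohesion, at -1.61 to -0.52. None passed the adjusted threshold.

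Some members had another starting level in experiment 1. The wild-type mean at 50 mM was above that of experiment 2 for 161 members and more than 5 times as high for 14, among them *clec-266*, *ces-2*, *ins-2* and *F07H5.13*. The same counts were not made over all genes, so these are not read as a trait of the members. *ins-2* had 57.9, 62.4 and 71.7 FPKM at 500 mM and 66.7 and 50.1 FPKM at 50 mM in *ssu-1* embryos, against 62.3, 58.4 and 60.9 FPKM at 500 mM and 53.0 and 54.3 FPKM at 50 mM in wild type. Its log2 change was 0.14 ± 0.11 (SE, adjusted p = 0.358) in *ssu-1* embryos and 0.17 ± 0.11 (SE, adjusted p = 0.221) in wild type by limma. The concentrations overlapped in *ssu-1* embryos and lay close together in wild type, where experiment 2 had given a wild-type change of 4.39 (5.18 without wild-type 50 mM replicate 4). *B0024.4*, *C24H12.7*, *ins-2* and *F07H5.13* had the smallest wild-type log2 changes of the members, 0.03 to 0.23. The hatched larva markers summed to between 1783 and 2375 FPKM in wild-type embryos at 50 mM in experiment 1, while in experiment 2 no wild-type library at 50 mM was under 5065 FPKM, and whether the age of the embryos differed between the experiments was not tested.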

How the data were processed

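RNA of *C. elegans* embryos was sequenced from stranded, paired-end libraries. The authors aligned reads to ce10 through RSEM 1.2.15 and Bowtie 1.0.1, with WormBase annotation, and the deposited table holds FPKM per gene and library. Counts were not used here, so depth is known only in relative terms. Of 45461 rows 1 had no gene name and was dropped. RefSeq names, of the WBcel235 assembly, were found for 44079 identifiers, and since that is not the build of the table no coordinates or sequences are given.

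The members and gene lists were chosen with earlier results of these data known. The study's own test, DESeq2, needs counts and could not be run on FPKM. Experiment 1 was tested in limma 3.58.1 (R 4.3.3), with 1 linear model of log2(FPKM + 1) for the 10 libraries and moderated variances that followed the mean level (eBayes with trend). Genes entered where 2 or more of these libraries reached 1 FPKM, and p-values were adjusted by Benjamini-Hochberg, with calls at 0.05. The fit was tested on simulated data with known changes. The text names the 12 members with the largest *daf-16* change, up to 5 members per list by level, the lowest interaction p-values, the extreme wild-type changes of experiment 1, the genes beside the limits, the early embryo markers and control genes. Genes outside this rule are marked or stand as family members.

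Alternatives covered the pseudocount, the low-level filter, the scaling (rescaled or quantile-normalized values), variances without trend, a block for the replicate number, the selection limits and the omission of single libraries. A restriction to members that met the limits without wild-type 50 mM replicate 4 was added after seeing the data. Plots were made in matplotlib 3.10.9 (Python 3.11.15).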

Additional observations from a re-analysis of the deposited data

How the results depend on the processing

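The number of members was 646 for a *daf-16* change more than 1.5 times that of wild type, 30 for more than 3 times, and 62 with wild-type 50 mM replicate 5 alone; leaving out 1 library at a time gave 79 (without wild-type 50 mM replicate 4) to 391 genes. Other scalings, FPKM minimums and forms of the ratio gave 198 to 330. In experiment 1, leaving out 1 library at a time gave 71 to 139 members that changed in *ssu-1* embryos, 140 to 247 in wild type, 0 to 12 for the interaction, 0 to 14 at 500 mM and 0 to 1 at 50 mM. The count at 500 mM was 0 without the filter on low FPKM and 1 with the replicate block. The members that met the limits without wild-type 50 mM replicate 4 of experiment 2, a choice made after seeing the data, gave 37 in *ssu-1* embryos, 64 in wild type and 1 at 500 mM. With the replicate block the counts were 126 in *ssu-1* embryos, 249 in wild type, 0 for the interaction and 0 at 50 mM, and 2 single-gene calls were lost. Libraries with the same number correlated between -0.40 and 0.25 in their deviations from the group means. With 2 or 3 libraries per group these values cannot decide whether the numbers pair the samples. The members named by rule, a set without *C06E1.1* and *C29F3.3*, had 88 single-gene calls in the main fit, not all of them given in the text. Of these calls 31 were lost in at least 1 alternative, 25 of them only when a library was left out, and 0 changed direction. Scaling moved the median of all genes by at most 0.04 on the log2 scale. Genes near 1 FPKM are limited by depth, which is known only in relative terms.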
